A study of Sus scrofa with 20 samples.

Results

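The genes of sterol and fatty acid synthesis were described in the uterus of 20 sows, across a comparison of different fractions of the boar ejaculate. The set was a list of 31 gene symbols taken by name. No cut on measured values was used, but earlier results of these data were known. Of these, 30 had a row among the 30345 gene rows of the deposited table, and all 30 were among the 17745 genes that passed the filter on low counts. The remaining symbol, IDI1, was not analysed here.

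Cells make cholesterol from acetyl-CoA. The mevalonate steps build isoprenoid units, these are joined into squalene, and squalene is closed into a ring and trimmed to cholesterol. Fatty acids start from the same acetyl-CoA, which ACLY and ACSS2 supply, and are built by ACACA and FASN and then lengthened and desaturated. Both branches answer to the SREBP transcription factors, which SCAP carries out of the endoplasmic reticulum when sterol is low and INSIG proteins hold back when sterol is high. In the uterus these pathways serve membranes, lipid stores of the epithelium and the secretions that reach an early embryo.

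The sows were wild-type Large White by Landrace crosses with a mean parity of 3.53, and tissue was taken 6 days after the onset of estrus, with 1 library per sow and 5 sows per group. Control sows were not inseminated. FR1 sows received the sperm-rich fraction of the ejaculate, FR2 sows the rich and intermediate fractions, and FR3 sows the rich, intermediate and poor fractions, from 3 Pietrain boars aged 32 months. Semen was placed beyond the cervix from the start of estrus and again at intervals of 24 h, on average 2.53 times per sow. All 20 samples carry 1 batch label. No group was inseminated without semen, and which sows held embryos is not in the labels, so the procedure, the semen and an early pregnancy cannot be told apart in any comparison with control. Columns of the table give a group and a number from 1 to 5 and not the sow, so a name such as control_1 stands for a group and a column.

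Library totals ran from 33 to 62.9 M counts, and between 17006 and 21574 genes had a count. Levels are CPM, counts scaled to the library total and its TMM factor. They are not divided by gene length, so levels of different genes are not compared. Libraries differed in the tissue they held. The mean level of 8 smooth muscle markers was 6.71 log2 CPM in control_1 and 8.61 to 11.6 log2 CPM in the other 19 libraries, so control_1 stood apart. Epithelial markers summed to 4880 to 7930 CPM in control, 1860 to 5290 CPM in FR1, 2210 to 3900 CPM in FR2 and 1760 to 6890 CPM in FR3, and 7 of 15 fell in inseminated sows in the test described next. The 8 fat cell markers summed to 6.77 to 95.4 CPM in control, 16.4 to 96.2 CPM in FR1, 28.2 to 54.8 CPM in FR2 and 18.3 to 71.7 CPM in FR3. ADIPOQ was at 0 in all 20 libraries and LEP in 17, while PLIN4 was counted in every library, at 3.71 to 86 CPM. Markers of steroid-making ovarian cells, 7 of 8 in the table, summed to 2.6 to 79.6 CPM in control and 1.14 to 4.4 CPM in inseminated sows. CYP19A1 and INSL3 were at 0 in all 20, and CYP11A1, HSD3B1, CYP17A1 and LHCGR reached at most 0.518, 2.29, 1.09 and 4.2 CPM. The highest sums were mostly OXT, at 39.8 and 78.6 CPM in control_3 and control_4. OXT fell in inseminated sows (-5.28 ± 1.14, edgeR adjusted p = 0.00553). The 7 embryo markers summed to 0.792 to 5.2 CPM, with POU5F1 at 0 in all 20 libraries, NANOG in 10, TFAP2C in 4 and GATA3 in none. The part of these cells in the results was not tested. In whole tissue, fewer cells of a type and less RNA per cell cannot be told apart.

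The first comparison set the 15 inseminated libraries, as the mean of FR1, FR2 and FR3, against control. PMVK and HSD17B7 fell and FADS1 rose. All 9 fatty acid genes had a fold change above 0, and 1 of them passed the test. Fold changes are log2, inseminated minus control, with SE and n = 15 against 5, and a gene was called at a Benjamini-Hochberg adjusted p below 0.05 in edgeR's quasi-likelihood test over all 17745 genes. The 3 calls among 30 genes stand beside 11.1% of all genes called. By direction, 1 of 30 was higher beside 2.89% of all genes, and 2 of 30 were lower beside 8.24%. The share of the set that was called was thus close to that of all genes. At an unadjusted p below 0.05 there were 11 of the 30, 7 higher and 4 lower, beside 26% of all genes. No gene of the set had all 5 controls above or all 5 below the 15 inseminated libraries, a separation that 0.468% of all genes showed.

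**Figure D1:**
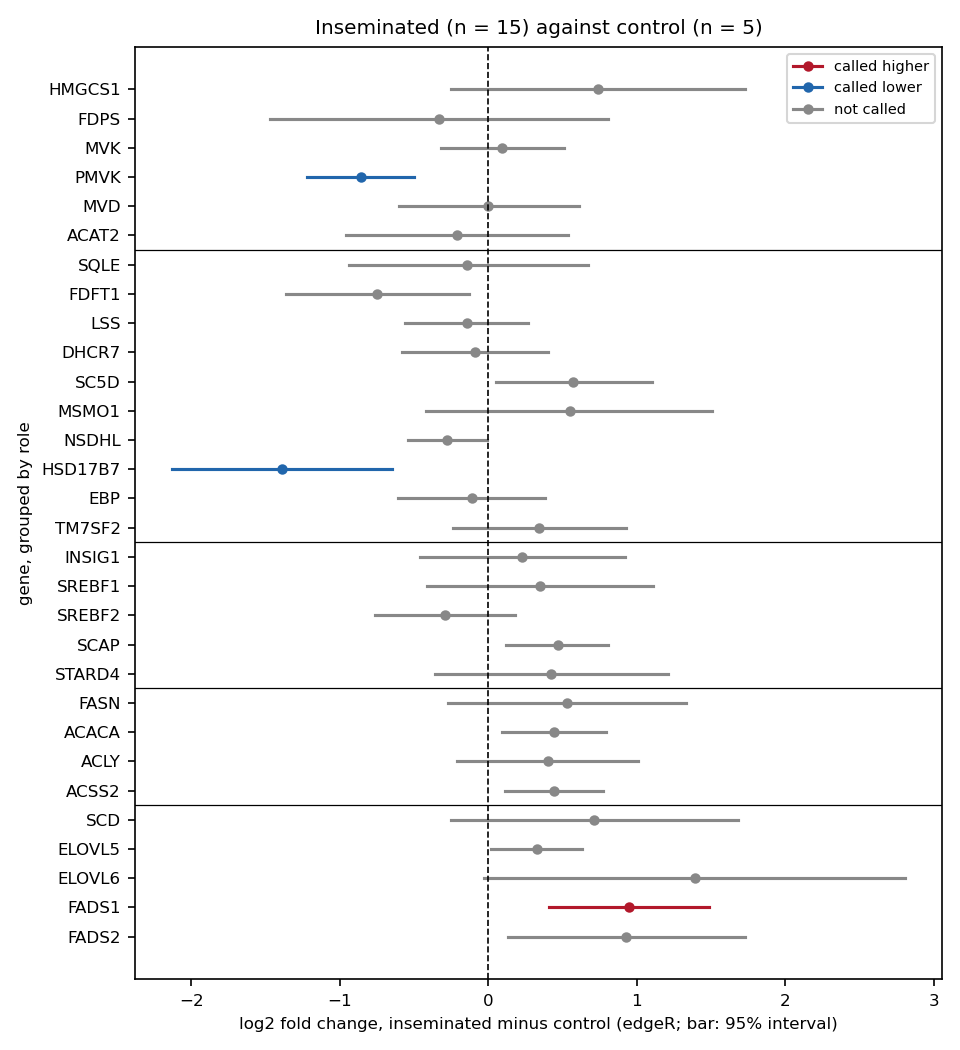
Fold changes of the 30 genes between 15 inseminated and 5 control libraries, on a log2 scale, with 95% intervals from edgeR; lines divide the genes by role, from the mevalonate steps at the top to elongation and desaturation at the bottom. PMVK and HSD17B7 (blue) were called lower and FADS1 (red) higher, and the 9 fatty acid genes at the bottom all lie right of 0.

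The fold changes differed by branch. The median was 0.33 over the 30 genes, with 19 above 0 (63.3%), and -0.05 over all genes tested, with 46% above 0. Mevalonate genes had a median of -0.10, with 3 of 6 above 0. Genes from squalene to cholesterol had a median of -0.12, with 3 of 10 above 0. For the 5 genes of sterol sensing and transport the median was 0.35, for the 4 of fatty acid synthesis 0.44, and for the 5 of elongation and desaturation 0.93, with 4 of 5, 4 of 4 and 5 of 5 above 0. These counts and medians describe the list and carry no test.

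Among the mevalonate steps, PMVK, the kinase that adds the second phosphate to mevalonate, had the clearest difference of the set. In control it stood at 30.9, 29.0, 47.2, 34.5 and 52.6 CPM. The inseminated libraries held 23.0, 12.3, 28.0, 23.0 and 22.5 CPM in FR1, 15.6, 15.4, 18.3, 18.3 and 22.7 CPM in FR2, and 24.1, 23.4, 35.6, 19.6 and 22.1 CPM in FR3. All but FR3_3 lay below every control, which is 14 of 15. The mean fell from 38.8 ± 10.5 CPM (SD, n = 5) to 21.6 ± 5.59 CPM (SD, n = 15). The log2 change was -0.86 ± 0.17 (edgeR adjusted p = 0.00331). It kept its call without each single library, between -0.94 and -0.72. With the epithelial markers as a covariate PMVK was at -0.76 ± 0.24 (adjusted p = 0.0503), and with a separate spread per group in limma-voom its adjusted p was 0.0779.

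HMGCS1, the synthase that makes HMG-CoA early in the pathway, was not called. Its controls were at 347, 145, 102, 80.6 and 191 CPM. FR1 held 101, 213, 450, 61.95 and 398 CPM, FR2 296, 286, 105, 328 and 298 CPM, and FR3 508, 739, 306, 93.3 and 242.5 CPM. Each inseminated group thus held high and low libraries, and the groups overlapped from end to end. The difference was 0.74 ± 0.47 (95% interval -0.25 to 1.73, edgeR adjusted p = 0.344).

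The other mevalonate genes did not pass either. FDPS, which makes farnesyl diphosphate, was at 106 to 2366 CPM in control and 203 to 2157 CPM in inseminated sows, and differed by -0.33 ± 0.54. ACAT2, the thiolase of the first step, differed by -0.21 ± 0.36, with 213 CPM in control_1 and 49.6 to 91.9 CPM in the other controls. MVK, a kinase of mevalonate, and MVD, the decarboxylase of mevalonate diphosphate, were at 0.09 ± 0.20 and 0.00 ± 0.29.

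From squalene onward, HSD17B7, the reductase of sterol ketones that can also act on estrone, was the gene called. It was at 23.3, 163, 84.55, 11.3 and 48.1 CPM in control. Inseminated libraries lay at 19.0, 20.6, 35.1, 17.5 and 19.2 CPM in FR1, at 17.95, 22.1, 20.6, 27.7 and 20.85 CPM in FR2, and at 30.8, 34.1, 41.2, 18.9 and 39.2 CPM in FR3. Control_2, control_3 and control_5 lay above all 15 inseminated libraries, control_4 lay below all of them, and control_1 lay among them. The log2 change was -1.39 ± 0.35 (edgeR adjusted p = 0.0152). It rested on control_2 and control_3: without control_2 it was -0.73 ± 0.32 (adjusted p = 0.149), without control_3 -1.29 ± 0.38 (adjusted p = 0.054), and without both -0.13 ± 0.29 (adjusted p = 0.83). With the epithelial markers as a covariate it was -0.71 ± 0.48 (adjusted p = 0.358). The exact rank-sum test over all libraries gave it an adjusted p of 0.461.

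SQLE, the epoxidase that commits squalene to sterols, was not called. Control libraries were at 91.9, 96.6, 109, 30.25 and 77.5 CPM. FR1 was at 32.6, 55.9, 115, 22.5 and 60.5 CPM, FR2 at 64.8, 83.5, 46.1, 88.7 and 51.35 CPM, and FR3 at 161.5, 177, 93.5, 21.0 and 72.7 CPM. The lowest level of all and the highest were both in FR3, and control lay within that range. The difference was -0.14 ± 0.38 (95% interval -0.94 to 0.67, edgeR adjusted p = 0.864).

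The other 8 genes of this stretch did not pass. FDFT1, the squalene synthase, differed by -0.75 ± 0.29 (edgeR adjusted p = 0.11), and 3 controls lay above and 1 below every inseminated library. NSDHL, a dehydrogenase that removes methyl groups from the sterol ring, was at -0.28 ± 0.13 (adjusted p = 0.171). SC5D, the desaturase near the end of the pathway, was at 0.57 ± 0.25 (adjusted p = 0.152), with 11 of 15 inseminated libraries above every control. MSMO1, the methylsterol oxidase, was at 0.55 ± 0.46. LSS, DHCR7, EBP and TM7SF2, the cyclase that forms lanosterol and 3 later reductases or isomerases, lay between -0.14 and 0.34.

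Among the sterol sensors, SCAP, the escort of the SREBP proteins, came nearest to a call. Its mean was 80.2 ± 22.7 CPM (SD, n = 5) in control and 111 ± 17.9 CPM (SD, n = 15) in inseminated sows, and 9 of 15 inseminated libraries lay above every control (log2 0.47 ± 0.16, edgeR adjusted p = 0.0749). INSIG1, which retains SCAP and is itself an SREBP target, was at 111, 42.4, 72.4, 40.6 and 87.25 CPM in control, at 48.35, 64.05, 81.5, 33.2 and 100.5 CPM in FR1, at 77.6, 125, 46.2, 122.6 and 75.1 CPM in FR2, and at 127, 132, 117, 26.9 and 83.9 CPM in FR3. Its groups overlapped, and it differed by 0.23 ± 0.33 (95% interval -0.46 to 0.92, adjusted p = 0.713).

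SREBF1 encodes the SREBP that acts mainly on fatty acid genes. It was at 384, 85.1, 77.0, 163 and 168 CPM in control, 140, 190, 329, 149 and 292.5 CPM in FR1, 179, 271, 151, 245.5 and 191 CPM in FR2, and 346.5, 365, 269, 62.25 and 183 CPM in FR3. Control_1 was the highest of all 20 libraries and FR3_4 the lowest (log2 0.35 ± 0.37, 95% interval -0.41 to 1.11, edgeR adjusted p = 0.593). SREBF2, which acts mainly on sterol genes, was at 431, 319, 539, 322 and 205 CPM in control, 210, 247, 382, 277 and 329.7 CPM in FR1, 276, 275, 232, 312 and 250.2 CPM in FR2, and 459, 493.2, 322, 156 and 264 CPM in FR3. It again had both ends of its inseminated range in FR3 and differed by -0.29 ± 0.22 (95% interval -0.76 to 0.18, adjusted p = 0.452). STARD4, a carrier of cholesterol within the cell, was at 0.42 ± 0.37.

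**Figure D2:**
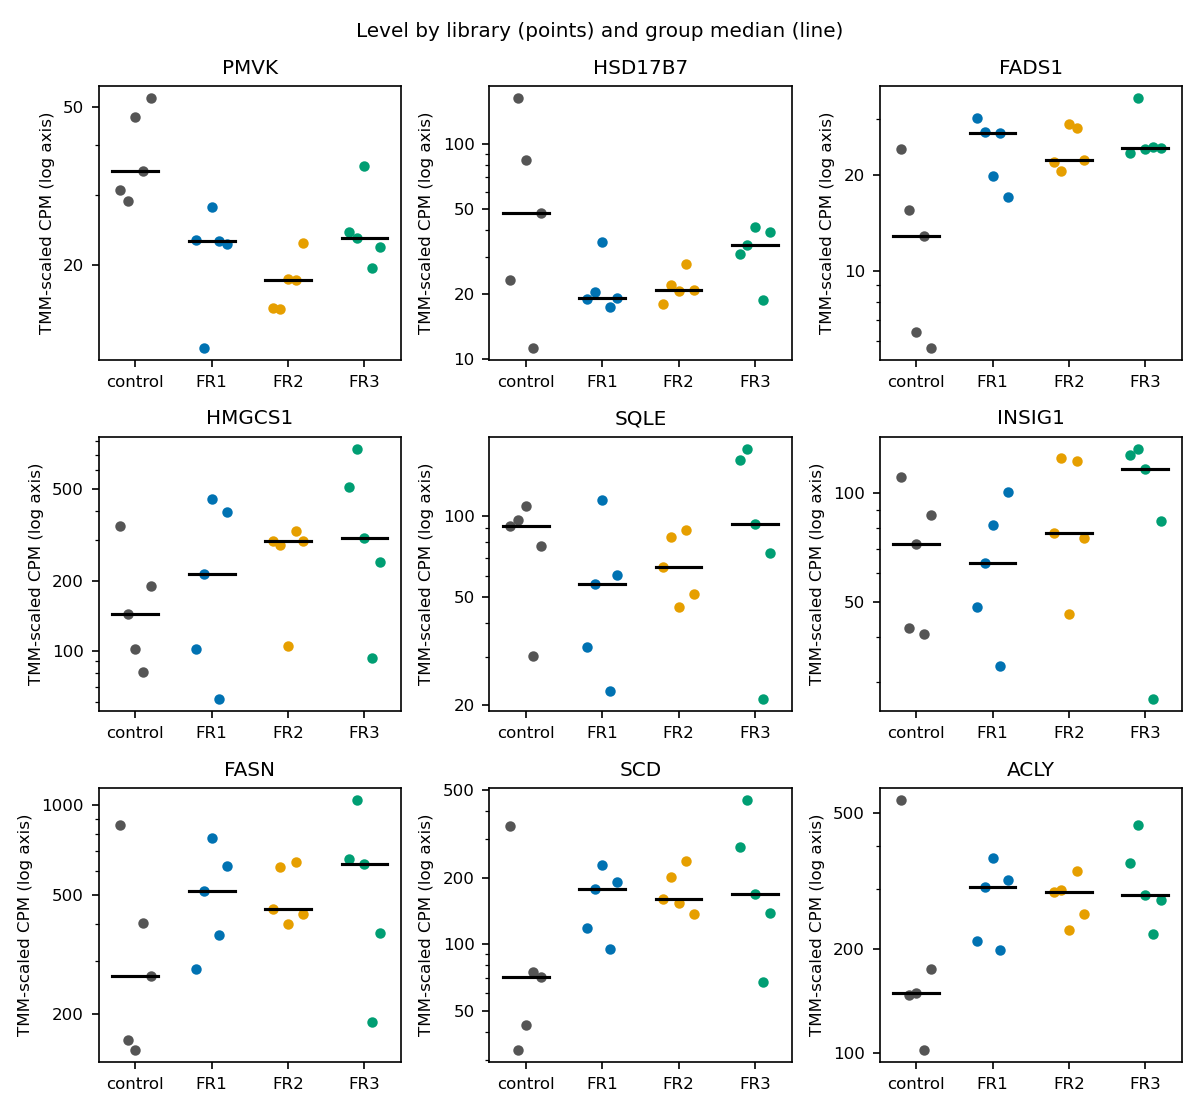
Levels of 9 genes in each library (points), as TMM-scaled CPM on a log axis, with a line at the group median of 5 libraries. PMVK controls lie above all inseminated points but 1, HSD17B7 controls spread from 11.3 to 163 CPM, and for FASN, SCD and ACLY 1 control lies far above the other 4.

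The 4 fatty acid synthesis genes had fold changes above 0, between 0.40 and 0.53, and none was called over all libraries. Stromal fibroblast markers lay above 0 as well, 8 of 10 with a median of 0.81, and PDGFRA and LUM rose (1.55 ± 0.31 and 1.42 ± 0.30, edgeR adjusted p = 0.00344 and 0.00508). Those 10 markers summed to 2050 to 9120 CPM in control, 6490 to 15000 CPM in FR1, 10900 to 14500 CPM in FR2 and 5130 to 18400 CPM in FR3, and their part in the fatty acid genes was not tested. FASN, the multienzyme that assembles palmitate, was at 855, 163, 151, 403 and 267.5 CPM in control. FR1 was at 282, 515, 777.5, 365.5 and 625.3 CPM, FR2 at 448, 619.6, 399, 646 and 432 CPM, and FR3 at 659.6, 1036, 634, 187 and 372 CPM. Control_1 exceeded all but 1 of the inseminated libraries, while control_2 and control_3 lay below all 15. The difference was 0.53 ± 0.38 (95% interval -0.27 to 1.33, edgeR adjusted p = 0.41).

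ACACA, the carboxylase that makes malonyl-CoA and sets the pace of synthesis, was at 62.85, 47.0, 34.4, 50.4 and 22.8 CPM in control. It was at 53.8, 57.2, 63.2, 69.2 and 61.7 CPM in FR1, at 63.9, 59.2, 62.7, 54.5 and 63.04 CPM in FR2, and at 59.3, 73.0, 49.7, 46.0 and 51.4 CPM in FR3. The inseminated libraries were close together, and 2 of 5 controls lay below all of them (log2 0.44 ± 0.17, edgeR adjusted p = 0.095). ACLY and ACSS2, which make acetyl-CoA from citrate and from acetate, were at 0.40 ± 0.29 and 0.44 ± 0.16 (adjusted p = 0.421 and 0.0788). For ACLY 4 of 5 controls lay below every inseminated library, at 102 to 176 CPM against 199 to 461 CPM, and control_1 lay above them all at 542 CPM.

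Of the genes that modify fatty acids, FADS1, the desaturase that makes arachidonate and other polyunsaturated chains, rose. It was at 24.1, 15.5, 6.44, 12.8 and 5.72 CPM in control. FR1 held 30.2, 27.25, 19.9, 27.2 and 17.1 CPM, FR2 21.9, 20.6, 28.85, 28.1 and 22.3 CPM, and FR3 23.5, 34.8, 24.1, 24.5 and 24.4 CPM. Every control but control_1 lay below all 15 inseminated libraries, and 8 of those 15 lay above control_1 too. The mean rose from 12.9 ± 7.52 CPM (SD, n = 5) to 25 ± 4.52 CPM (SD, n = 15). The log2 change was 0.95 ± 0.26 (edgeR adjusted p = 0.0229). Without control_3 it was 0.79 ± 0.26 (adjusted p = 0.079), and with the epithelial markers as a covariate 0.75 ± 0.33 (adjusted p = 0.149). The exact rank-sum test gave an adjusted p of 0.102.

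FADS2, the desaturase that precedes FADS1 in the same route, had the same order, with 4 of 5 controls at 3.599 to 16.5 CPM below every inseminated library (17.5 to 42.0 CPM) and control_1 at 36.2 CPM. It differed by 0.93 ± 0.38 (edgeR adjusted p = 0.126). SCD, which makes oleate from stearate, was at 342, 33.2, 42.9, 75.1 and 70.7 CPM in control. FR1 was at 118, 177, 228, 94.9 and 191.5 CPM, FR2 at 160.4, 201, 154, 238 and 137 CPM, and FR3 at 275, 446, 169, 67.6 and 138 CPM.

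In SCD too 4 controls lay below every inseminated library but FR3_4, and control_1 near the top (log2 0.71 ± 0.46, 95% interval -0.25 to 1.68, edgeR adjusted p = 0.352). ELOVL5 and ELOVL6, elongases of polyunsaturated and of saturated chains, were at 0.33 ± 0.15 and 1.39 ± 0.68 (adjusted p = 0.16 and 0.203). ELOVL6 had the widest range of the set, from 18.2 CPM in control_5 to 503 CPM in FR3_2, a ratio of 27.6.

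How many fatty acid genes were called depended on control_1, the library low in smooth muscle markers. Without it 8 genes of the set passed beside 13.5% of all genes: ACLY at 1.04 ± 0.21, ACACA at 0.62 ± 0.17, SCD at 1.74 ± 0.39, FADS1 at 1.3 ± 0.24 and FADS2 at 1.54 ± 0.36 rose (edgeR adjusted p between 0.00175 and 0.0199), SCAP rose by 0.58 ± 0.17 (adjusted p = 0.0344), and PMVK and HSD17B7 fell. FASN was then at 1.12 ± 0.37 (adjusted p = 0.0524). With all 20 libraries and the smooth muscle markers as a covariate, 7 passed beside 13.8% of all genes. Among them were FASN at 0.73 ± 0.21, SCD at 1.2 ± 0.20 and ACLY at 0.63 ± 0.14 (edgeR adjusted p = 0.0277, 0.00102 and 0.00743). Control_1 lay farthest from the other libraries in these markers, so this fit and the fit without control_1 are not independent. The part of smooth muscle in these values was not tested.

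Leaving out control_3, alone or with other controls, moved FASN, SCD and ACLY the other way. Without control_3 the 1 gene called was PMVK, beside 5.52% of all genes, and FASN, SCD and ACLY were at 0.33, 0.51 and 0.29. Without control_2, control_3 and control_4, FASN, SCD and ACLY were at -0.06 ± 0.45, -0.14 ± 0.51 and -0.27 ± 0.30. The fit then held 2 controls, control_1 and control_5, and lacked control_2 and control_3, the lowest libraries of all in FASN and SCD.

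**Figure D3:**
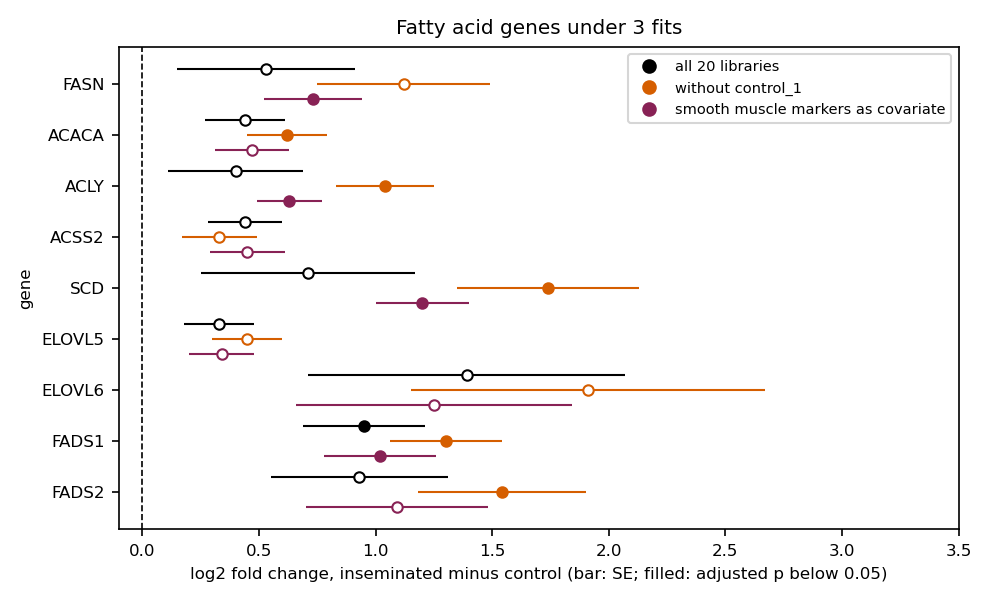
Log2 fold changes of the 9 fatty acid genes, inseminated minus control, with SE, from edgeR with all 20 libraries, without control_1, and with the mean of the smooth muscle markers as a covariate; filled points were called. FADS1 alone is filled with all 20 libraries, and ACACA, ACLY, SCD, FADS1 and FADS2 are filled without control_1.

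The mean of the epithelial markers was lower in inseminated sows, at 5.8 to 7.38 log2 CPM against 7.33 to 7.74 log2 CPM in control. Of the 15 markers, 12 had a fold change below 0 and 3 above 0. Their median sum was 5870 CPM in control, 3640 CPM in FR1 and 3320 CPM in FR2, but 6130 CPM in FR3. Inseminated and control libraries hardly overlapped in the mean, so a fit with this mean cannot well separate the markers from insemination. The fit was repeated with this mean as a covariate. Then 6 genes of the set were called higher, beside 10% of all genes called in either direction: HMGCS1 at 1.70 ± 0.46, MSMO1 at 1.70, SC5D at 1.16, INSIG1 at 1.01, SCAP at 0.67 ± 0.20 and ELOVL6 at 2.62 ± 0.70 (edgeR adjusted p between 0.00957 and 0.0497). SQLE then stood at 1.01 and SREBF2 at 0.25, both with the sign changed, and none of the 3 genes called without the covariate passed. A rank test and a fit with a separate spread per group called fewer genes. The exact rank-sum test called PMVK (adjusted p = 0.048) beside 1.88% of all genes, and limma-voom with its own spread for each group called none of the 30, beside 1.45%.

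Each inseminated group was then set against the same 5 controls, so these comparisons share control samples and are given side by side. PMVK was the gene called, in FR1 (-0.84 ± 0.22, edgeR adjusted p = 0.0499) and in FR2 (-1.10 ± 0.22, adjusted p = 0.0103), beside 2.58% and 5.51% of all genes. In FR3 it was at -0.64 ± 0.22 (adjusted p = 0.102), and 0 of the 30 were called, beside 4.27%. At an unadjusted p below 0.05 there were 7 of 30 in FR3, beside 21.3% of all genes. DESeq2 called FADS1 in FR3. The FR1 call of PMVK lies at the threshold and was lost in 17 of the 20 fits without 1 library.

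HSD17B7 was at -1.57 ± 0.47 in FR1, -1.60 ± 0.47 in FR2 and -1.01 ± 0.47 in FR3 (edgeR adjusted p = 0.0751, 0.0533 and 0.217). FADS1 was at 0.91 ± 0.30, 0.91 ± 0.30 and 1.02 ± 0.30 (adjusted p = 0.102, 0.0774 and 0.0596). The median over the 30 genes was 0.19 in FR1, 0.29 in FR2 and 0.45 in FR3, beside -0.03, -0.04 and -0.05 over all genes, and 19, 17 and 25 of 30 lay above 0. In the test for any difference among the 4 groups PMVK was called (adjusted p = 0.021), beside 4.03% of all genes.

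Between the fractions no gene of the set was called. FR2 against FR1 and FR3 against FR1 had 0% of all genes called, and FR3 against FR2 had 0.00564%, which is 1 gene. At an unadjusted p below 0.05, 0 of 30 differed between FR2 and FR1 (0.75% of all genes), 3 between FR3 and FR2 (7.35%) and 1 between FR3 and FR1 (8.33%), and DESeq2 and limma-voom also called 0 of the 30 in each. In FR3 against FR2, 25 of 30 lay above 0 with a median of 0.32, beside 0.01 and 50.5% above 0 over all genes. In the same comparison 13 of 15 epithelial markers lay above 0 with a median of 0.60, and 1 of 10 stromal fibroblast markers with a median of -0.32. Their part in these values was not tested. The largest difference was FDPS at 1.24 ± 0.69 (95% interval -0.20 to 2.68). NSDHL, at 0.40 ± 0.16 against FR2 and 0.45 ± 0.16 against FR1, had an edgeR adjusted p of 0.665 and 0.589. The 95% intervals were wider than 1 log2 unit to each side for HMGCS1, FDPS, MSMO1, SCD and ELOVL6, and narrower for the other 25 genes, in each of the 3 comparisons. HMGCS1 was at 0.52 in FR3 against FR2 with an interval of -0.64 to 1.68, and LSS at -0.06 with -0.58 to 0.45.

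Levels varied widely among sows of 1 group. FR3_2 held the highest level of all 20 libraries in 10 of the 30 genes, and FR1_3, FR3_1 and FR3_2 were each among the 5 highest in 22. FR3_4 was lowest in 8 and control_4 in 7, and they were among the 5 lowest in 21 and 20. FR3 therefore held both the highest and the lowest of these profiles. The counts were not made for all genes, so they are not shown to be particular to the set. Smooth muscle markers averaged 8.61, 9.33 and 8.98 log2 CPM in FR1_3, FR3_1 and FR3_2 and 11.2 log2 CPM in FR3_4. Epithelial markers averaged 7.06, 7.38 and 7.21 log2 CPM in the first 3 and 5.80 log2 CPM in FR3_4, but 7.57 log2 CPM in control_4. Their part in these levels was not tested. The median SD of log2 CPM was 0.69 over the 30 genes in control (0.69 over all genes), 0.50 in FR1 (0.40), 0.26 in FR2 (0.32) and 0.64 in FR3 (0.52). FR2 sows were thus the most alike.

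**Figure D4:**
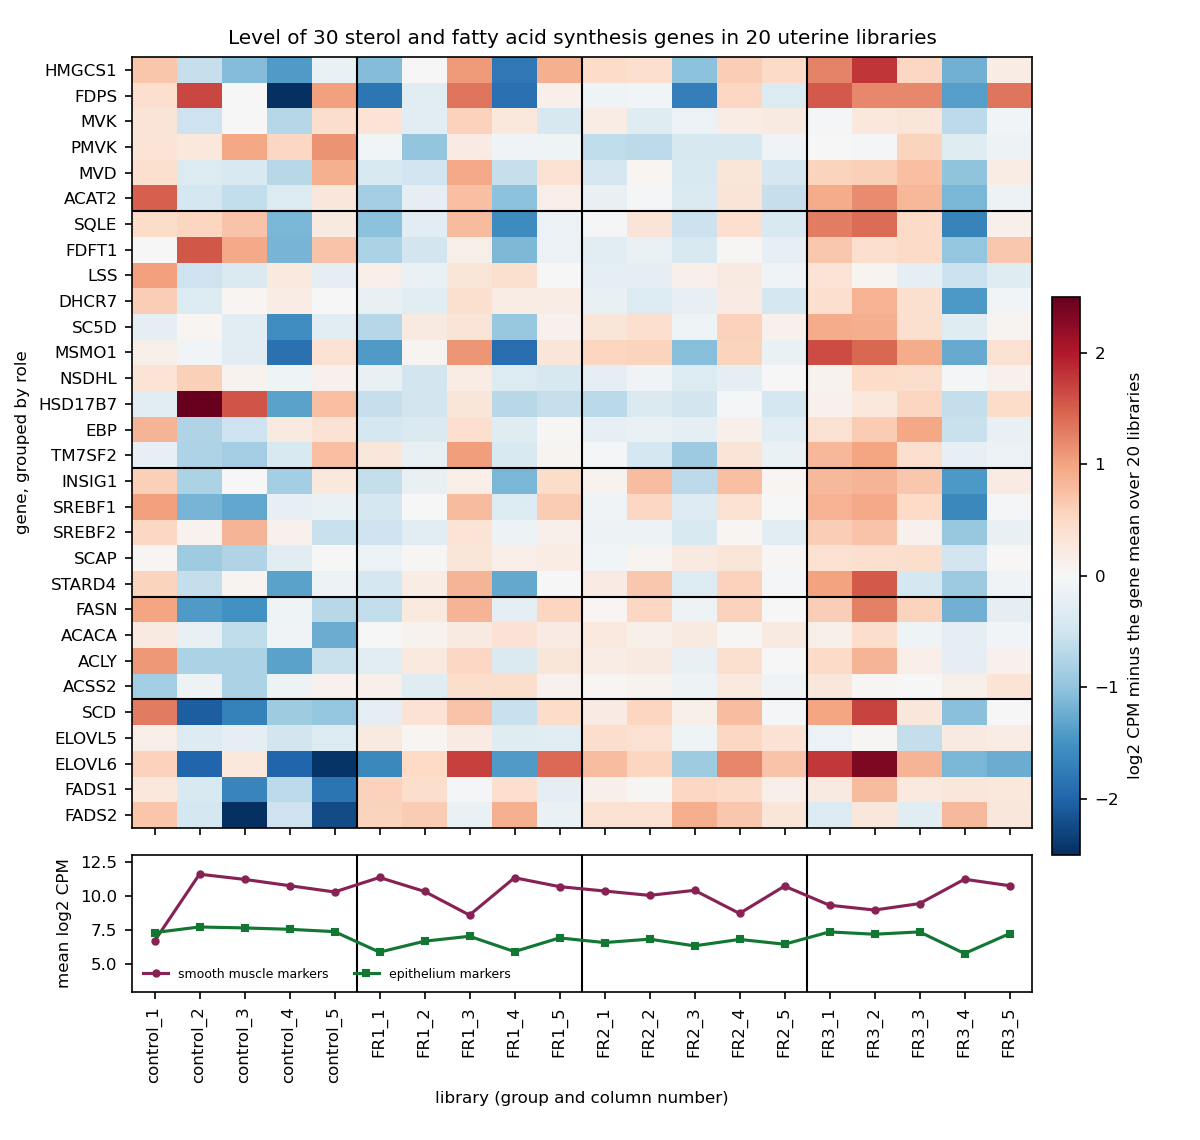
Level of each of the 30 genes in each of 20 libraries as log2 CPM minus the gene's mean (colour, limits at -2.5 and 2.5), with the mean log2 CPM of smooth muscle and epithelial markers below. Most genes are high in FR1_3, FR3_1 and FR3_2 and low in FR3_4 and control_4, and control_1 is high in 14 of 30 while lowest in smooth muscle markers.

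Levels of many of these genes were correlated from sow to sow. Over the 435 pairs of the 30 genes the median Pearson correlation of log2 CPM was 0.41, and over all pairs of genes tested it was 0.00. Within the 15 inseminated libraries the median was 0.55 over the 30 genes, 0.64 within the squalene-to-cholesterol genes and 0.79 among the sensing genes, and -0.01 within the elongation and desaturation genes. These medians are descriptions, since the pairs share libraries and tissue makeup.

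A family of 8 pairs was tested, with 2-sided permutation p-values adjusted over the 8. HMGCS1 followed INSIG1 (r = 0.87, rho = 0.85, n = 20 libraries, adjusted permutation p = 2.67e-05 and 2e-05) and SQLE (r = 0.78, rho = 0.70, adjusted permutation p = 0.00014 and 0.00126). Without the 2 libraries farthest from the median of HMGCS1, control_4 and FR1_4, r was 0.82 and 0.68. In the 15 inseminated libraries alone it was 0.90 and 0.92, as high as over all 20.

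FASN followed SREBF1 (r = 0.96, rho = 0.95) and SCD (r = 0.95, rho = 0.96), each with an unadjusted permutation p of 1e-05, the smallest that 100000 resamples can give (adjusted 2.67e-05). Without control_2 and control_3 r was 0.94 and 0.92, and in inseminated libraries 0.96 and 0.94. With ACACA, FASN had r = 0.62 and rho = 0.61 (adjusted permutation p = 0.0036 and 0.00744), falling to r = 0.54 without those controls and to r = 0.52 and rho = 0.32 (permutation p = 0.245 for rho) in inseminated libraries. HMGCS1 and FASN, a pair from the 2 branches, had r = 0.76 and rho = 0.86 (adjusted permutation p = 0.000176 and 2e-05), 0.86 without control_4 and FR1_4 and 0.84 in inseminated libraries. That pair is high among its kind: over all 144 pairs of a sterol synthesis gene with a fatty acid gene the median r was 0.10, from -0.80 to 0.82, and within inseminated libraries 0.21.

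HMGCS1 and SREBF2 were weaker over all libraries (r = 0.47, rho = 0.54, adjusted permutation p = 0.0427 and 0.0183) than within inseminated ones (r = 0.80, adjusted permutation p = 0.000453), and that difference was not tested. The pooled value passed in 10 of the 20 sets that left 1 library out, and without control_4 and FR1_4 it was 0.55. KRT18, a keratin of simple epithelia that itself fell in inseminated sows (-1.25 ± 0.17, edgeR adjusted p = 0.000176), was the epithelial marker set beside HMGCS1 in this family. It gave r = 0.03 (adjusted permutation p = 0.905) over all libraries, -0.01 without the same 2 libraries, and r = 0.53 (adjusted permutation p = 0.0467) within the 15 inseminated ones. The other epithelial markers spread widely around that value. Over all 15 of them the median r with HMGCS1 was 0.27, from -0.36 for MUC1 to 0.83 for GRHL2, and within inseminated libraries it was 0.84, from -0.77 for FOXA2 to 0.91 for CLDN4, with 14 of 15 above 0. HMGCS1 thus ran with most epithelial markers among inseminated sows, and these values, added after the pairs had been tested, are a description with no test.

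**Figure D5:**
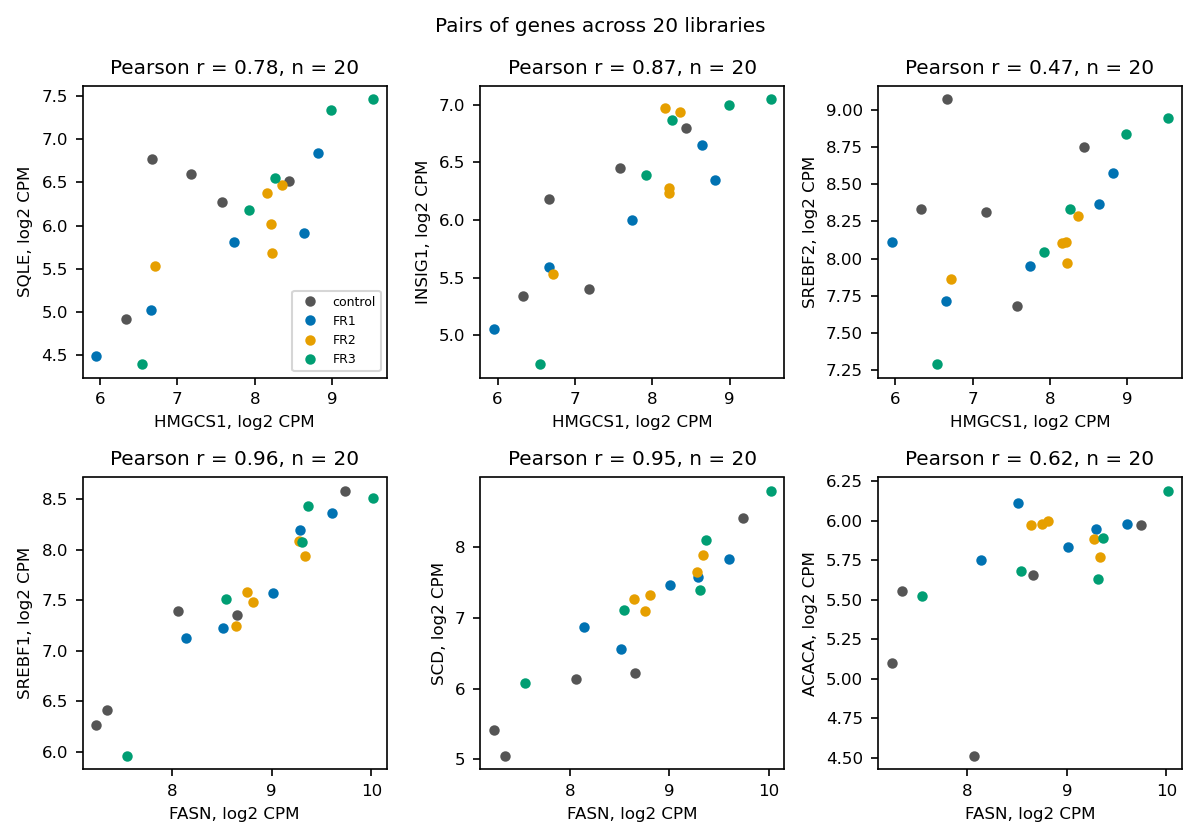
Levels of 6 pairs of genes in 20 libraries, as log2 CPM on both axes, coloured by group, with Pearson r above each panel. Points of the 4 groups mix along the same line for FASN with SREBF1 and SCD, and control_3 lies above the rest for HMGCS1 with SREBF2.

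Other lipid genes were taken as 8 lists and tested in the mean of inseminated sows against control, beside the same 11.1% of all genes. Among 9 other genes of sterol synthesis, LBR, a sterol reductase of the nuclear envelope, rose by 0.52 ± 0.16, and ACAT1, the mitochondrial thiolase, and POR, the electron donor of sterol oxidases, fell (-1.36 ± 0.29 and -0.44 ± 0.12, edgeR adjusted p = 0.00483 and 0.0243). ACAT1 stood at 465 CPM in control_3 and 62.3 to 142 CPM in the other controls, and without control_3, where ACAT1 was at -0.55 ± 0.17 (adjusted p = 0.0676), none of the 9 was called. LBR also lost its call without control_2 or control_4, and POR without control_1.

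Of 15 genes of sterol uptake and transport 2 fell: LRP8, a lipoprotein receptor (-3.08 ± 0.43), and STARD5, a sterol carrier (-0.96 ± 0.20, edgeR adjusted p = 0.000236 and 0.00434). LRP8 was at 77.5 CPM in control_3 and 2.48 to 20.1 CPM in the other controls, and without control_3 it was at -1.88 ± 0.32 (adjusted p = 0.00244). Among 9 regulators INSIG2, the second SCAP retention protein, fell (-1.43 ± 0.27, adjusted p = 0.00227), and ERLIN2, a membrane protein of the endoplasmic reticulum, rose (0.49 ± 0.14, adjusted p = 0.0332). INSIG2 kept its call without each control in turn, with -0.97 ± 0.23 (adjusted p = 0.0213) without control_3, and ERLIN2 lost it without control_1, control_2, control_3 or control_4.

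Of 11 genes of sterol efflux and esterification 2 rose: SOAT1, which makes cholesteryl esters (1.43 ± 0.32, edgeR adjusted p = 0.00713), and LPCAT3, which puts polyunsaturated chains into phospholipids (0.66 ± 0.20, adjusted p = 0.0401). SOAT1 was called without each control in turn, with adjusted p = 0.0272 without control_3, and LPCAT3 was not called without control_2, control_3 or control_4. HACD3, a dehydratase of the elongation cycle, rose by 1.64 ± 0.36 and ACSL5, an activator of long-chain fatty acids, fell (-0.83 ± 0.19), 2 of 18 genes of that list, both still called without each control.

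Of 14 genes that support fatty acid synthesis 4 fell and none rose, while the 4 synthesis genes above lay above 0. MID1IP1, which promotes assembly of the ACACA enzyme, was at -2.88 ± 0.49, PPARG, the lipid-storage transcription factor, at -2.24 ± 0.43, PGD, a source of NADPH, at -1.47 ± 0.36 and STK11, the kinase above AMPK, at -0.34 ± 0.10 (edgeR adjusted p between 0.00101 and 0.0267). MID1IP1 was at 1020 CPM in control_3, 189 CPM in control_2 and 32.6 to 49.1 CPM in the remaining 3. Inseminated sows had 21.5 to 47.5 CPM. Of those 3 controls, control_1 lay just above them at 49.1 CPM, and control_4 and control_5 lay among them. Without control_3, MID1IP1 was at -1.10 ± 0.30 (adjusted p = 0.0356) and PPARG at -1.72 ± 0.44, both still called, and PGD at -0.25 ± 0.15 (adjusted p = 0.371) and STK11 were not. STK11 was not called without control_4 either.

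Of 16 genes of triglyceride synthesis and storage 1 rose, AGPAT1 (0.73 ± 0.20), and 3 fell, AGPAT3 (-1.29 ± 0.27), PNPLA2, the first lipase of stored triglyceride (-0.81 ± 0.24), and GPAT3 (-0.89 ± 0.27). Of 14 genes of fatty acid oxidation 2 fell, HADHA and ACADVL (-0.49 ± 0.11 and -0.40 ± 0.11), and PPARA, which drives this pathway, rose by 1.85 ± 0.58 from 0.513 ± 0.407 CPM (SD, n = 5), a level near 1 CPM. Without control_3 the call left among these 2 lists was AGPAT3, at -0.86 ± 0.24 (adjusted p = 0.0456). GPAT3 also lost its call without control_1, and PPARA without control_4.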

How the data were processed

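RNA from whole uterine tissue of 20 sows was sequenced after poly-T capture, per the labels' protocols. The submitters' processing notes name STAR 2.7.9a, Salmon 1.10.1 and CASAVA. Genome build, annotation release and use of strand are not given in the sources used here. Since the labels' protocols name dUTP and dTTP as options for the second strand, antisense partners cannot be told apart. The deposited values are expected counts (estimated counts) per gene, not scaled, 87.2% of them whole; they were rounded. Such estimates share reads between similar transcripts, so genes with processed copies are uncertain. Of 30369 rows, 24 name no gene and were left out, between 0.0036% and 0.0133% of each library. Of 30345 gene identifiers, 30328 were found in a RefSeq table of Sscrofa11.1 genes, used for names only.

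All 20 libraries entered 1 fit in edgeR 4.0.16 (R 4.3.3): filterByExpr, TMM factors, robust quasi-likelihood test, 2-sided, 16 residual degrees of freedom, 7 contrasts and 1 test of any difference, with Benjamini-Hochberg adjustment over the 17745 genes. The SE is the log2 change divided by the square root of F. The fold compares mean counts, so 1 high library can set it. Correlations used log2 CPM with a prior count of 2 and permutation tests in Python 3.11.15. Depth was 33 to 62.9 M counts, so sow-to-sow spread, not counting, limits precision for these genes. The test was tried on simulated counts with known changes. Each simulated gene had the same spread in all libraries, and genes were drawn independently. In the data the median SD of log2 CPM over all genes was 0.69 in control, 0.4 in FR1, 0.32 in FR2 and 0.52 in FR3. The simulated rates therefore need not hold for the data. For inseminated minus control it recovered 49% of 2-fold and 79% of 4-fold changes, with 10 false calls. For FR3 minus FR1 it recovered 27% and 70%, with 6 false calls, so in that setting most 2-fold differences between these fractions were missed.

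Members called in any contrast, and HMGCS1, SQLE, INSIG1, SREBF1, SREBF2, FASN, ACACA and SCD, are given per library; other lists name up to 4 genes by p, of which those not called are mostly left out. The members, lists and tests were chosen with earlier results of these data known. Alternatives were DESeq2 1.42.0, limma-voom (limma 3.58.1) with 1 spread or with separate spreads by group, relative log expression factors, an exact rank-sum test, other filters and thresholds, marker covariates, only the groups compared, and left-out libraries. A gene of the sterol synthesis list is not reported here by name.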

Additional observations from a re-analysis of the deposited data

Results flagged for a closer look

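Of 120 sets of 5 libraries (30 genes in 4 groups), 13 had a library far from the other 4 by Dixon's limit. Independent values from a normal distribution pass it in about 1 of 20 sets. The sets here are CPM on a linear scale of genes correlated over the same libraries, so that rate does not carry over to them. In control, control_1 was such a library in 4 genes: ACAT2 at 213 CPM against at most 91.9, SCD at 342 CPM against at most 75.1, ELOVL5 at 77.1 CPM against at most 57.5, and ACLY at 542 CPM against at most 176. TM7SF2 was at 60.6 CPM in control_5 and at most 31.0 CPM in the other controls.

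In FR1, HSD17B7 was at 35.1 CPM in FR1_3 and at most 20.6 CPM elsewhere. In FR2, HMGCS1 and ELOVL5 were low in FR2_3, at 105 CPM against at least 286 and 63.2 CPM against at least 88.4, and EBP was at 49.5 CPM in FR2_4 against at most 40.5. In FR3, FDPS and FDFT1 were low in FR3_4, at 288 CPM against at least 1700 and 97.3 CPM against at least 256. PMVK was at 35.6 CPM in FR3_3 against at most 24.1, and FADS1 at 34.8 CPM in FR3_2 against at most 24.5.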

How the results depend on the processing

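No paired analysis was possible because the labels number the sows from 1 to 20 with no number shared between groups, and the column numbers carry no pairing. Leaving out each library in turn gave 1 to 8 genes of the set called for the mean of inseminated sows (lowest without control_3, highest without control_1), 0 to 6 for FR1, 1 to 8 for FR2, 0 to 4 for FR3 and 0 to 5 for any difference, and 0 in each comparison between fractions. In those fits the share of all genes called ran from 5.52% to 15.2% for the mean, 0.551% to 7.64% for FR1, 1.76% to 10.5% for FR2, 0.355% to 10.5% for FR3 and 1.32% to 8.49% for any difference, and under the other settings from 1.45% to 16.8%, 0% to 8.05%, 0% to 12.5%, 0% to 10.3% and 0.124% to 11.9%. The mean-contrast count was 3 with relative log expression factors, both other filters, a fold of at least 1.5, DESeq2 and limma-voom. It was 6 at an adjusted p below 0.1, 6 with the epithelial covariate, 7 with the smooth muscle covariate, 0 with a spread per group, 1 by rank-sum, and 1 without control_2 and control_3, with or without control_4.

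FR1 called 0 with no filter, the epithelial covariate, only its own groups, limma-voom, a spread per group, the rank-sum test and all 3 sets of left-out libraries, 2 at 0.1 and 5 with DESeq2 or the smooth muscle covariate. FR2 called 0 with only its own groups or by rank-sum, 2 with relative log expression factors or limma-voom, 3 with a mean of at least 1 CPM or the epithelial covariate, and 4 at 0.1, with DESeq2 or with the smooth muscle covariate. FR3 called 1 with that filter, at 0.1, with DESeq2, with limma-voom and without FR1_1, FR1_4, FR2_3 and FR3_4, 3 with the smooth muscle and 4 with the epithelial covariate. Any difference called 2 at 0.1 or with the smooth muscle covariate, 4 with DESeq2, and 0 with limma-voom, with a spread per group and without each of the 3 sets of libraries. The cause was not tested. Under these settings the share of all genes called ran from 0% to 8.05% for FR1 and from 0% to 12.5% for FR2. It ran from 0% to 10.3% for FR3 and from 0.124% to 11.9% for any difference. A count for the set is thus not read apart from its setting.

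Signs changed for SQLE (1.01 with the epithelial covariate, 0.11 without FR1_1, FR1_4, FR2_3 and FR3_4, 0.14 without control_2 and control_3), SREBF2 (0.25 with the epithelial covariate) and SREBF1 (-0.09 without control_2 and control_3). Without control_2, control_3 and control_4 they changed for SREBF1 (-0.29), INSIG1 (-0.25), FASN (-0.06) and SCD (-0.14). The correlation of HMGCS1 with KRT18 was 0.00 with relative log expression factors and ran from -0.08 to 0.11 with 1 library left out, among them -0.04, -0.03 and -0.02. Of the 8 pairs, 6 or 7 passed with 1 library left out. The mean contrast has no fit with fewer groups, and the rank-sum test, the fold minimum and the fit with only the groups compared were not run for any difference.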
